A study of Mus musculus with 38 samples.

Results

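The RNA of the light, non-polysome (NP) part of sucrose gradients was compared between mouse oocytes arrested in metaphase II (MII) and zygotes in interphase. The members are the 6 NP libraries of these groups, 3 MII (A, B and C) and 3 zygote (B, C and D), of 38 samples in the series, and were chosen by the stage and fraction in the column names. Each lysate, made in the presence of cycloheximide, had been run on a gradient of 10 to 50% sucrose and cut into 10 fractions, of which the lightest 5 were pooled as NP and the heaviest 5 as polysome (P). Both groups came from ICR females primed with PMSG. The MII oocytes came from females at least 6 weeks old. They had been taken from the ovary at the germinal vesicle (GV) stage into medium with IBMX, used to prevent spontaneous resumption of meiosis. They were then freed of their cumulus cells and matured in M16 medium without IBMX for 12 h. The zygotes came from females that had also received hCG and had been mated with males of the same strain. They were flushed from the oviducts after 16 h, had pronuclei and had seen no nocodazole. IBMX and maturation in culture against hCG and development in the animal, and unfertilised against fertilised, therefore go with the stage and cannot be told apart. The study describes the libraries of each group as biological replicates. How many oocytes or zygotes, and how many females, stand behind 1 library is not given in the sources used here, so the spread between libraries may be partly technical.

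A grown oocyte makes almost no new RNA, and the embryo lives on maternal transcripts until its own genome is switched on. Such transcripts are held as ribonucleoprotein particles, engaged by ribosomes or degraded. Particles without ribosomes, free ribosomal subunits and single ribosomes sediment slowly, so the NP pool holds stored RNA together with RNA on its way into or out of translation. Recruitment in maturing oocytes often follows lengthening of the poly(A) tail, directed by the cytoplasmic polyadenylation element (CPE), a U-rich stretch close to the 3′ end. Ribosomal protein transcripts carry another element, a pyrimidine tract at the very 5′ end that puts them under mTOR control.

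Sequences of both kinds are shown here because genes were counted by them below. The first set holds 30 bases around a CPE-like hexamer or heptamer (TTTTAT or TTTTAAT, in capitals), found by a search of the RNA strand in the last 100 bases of the annotated 3′UTR. These genes have the site and a change that differed between NP and P. The bases were read from GENCODE transcripts of the build the study names, GRCm38, and are written 5′ to 3′ as DNA. Cdc20 (chr4:118432923-118432952, minus strand), D6Ertd527e (chr6:87112941-87112970, plus), Fpgs (chr2:32682630-32682659, minus), Magoh (chr4:107887346-107887375, plus), H1foo (chr6:115950157-115950186, plus), H2afx (chr9:44336027-44336056, plus) and Tcl1 (chr12:105216797-105216826, minus) fell more in P than in NP, whereas Tomm6 (chr17:47686706-47686735, minus) rose more in P.
Cdc20: ttcctttcttgtTTTTATtttattttttct
D6Ertd527e: tcctgtacatttTTTTATtattgtttgttt
Fpgs: aacccttttattTTTTATtttttgtaaata
Magoh: tattggggcaatTTTTATaaacaataaatg
H1foo: cgattctgaagcTTTTATtgtctaataagc
H2afx: ttaatgggctaaTTTTATtaaaggatcgtt
Tcl1: gaatgtgtgggaTTTTATgtggttctattt
Tomm6: ggtattttattcTTTTAATaagaaacttat

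The other set holds 30 bases around the longest pyrimidine run (capitals) that begins within 25 bases of the start of 4 ribosomal protein genes, from RefSeq promoters of GRCm38.p6. They are shown because this family made up the most uniform fall in the NP pool. They were picked after their values were known, 3 for a run near the start and Rps19 for its large fall. Rpl38 lies at chr11:114668570-114668599 (plus), Rpl18 at chr7:45718064-45718093 (plus), Rps27 at chr3:90213629-90213658 (minus) and Rps19 at chr7:24884911-24884940 (plus).
Rpl38: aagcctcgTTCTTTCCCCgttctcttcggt
Rpl18: gcaggccgCTCTTTCCCCgcccactccggc
Rps27: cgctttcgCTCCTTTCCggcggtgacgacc
Rps19: gtggagggCTCTCCCacgcggtcaccacgc

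The files give FPKM, which are relative to the library, and the read depth of a library is unknown. A change in FPKM is a change relative to the library, and less of a transcript per cell cannot be told apart from more of the others. Summed over genes, FPKM came to 135488 to 149430 in the MII libraries and 108748 to 117449 in the zygote libraries. The main fit did not rescale the libraries, so a fold in FPKM is not exactly a fold in the share of the summed FPKM. In the MII libraries 9199, 9735 and 9757 genes exceeded 0.1 FPKM and in the zygote libraries 10381, 10525 and 10430 did, a difference of 882 genes for which the exact permutation test (two-sided) gave p = 0.1, the smallest that 3 against 3 allows. Above 1 FPKM the difference was 12 genes (exact p = 1). The share of genes listed at the table's floor of 0.01 was 39.4 to 45.6% in MII and 33.4 to 35.4% in zygotes, and whether this plays a part in the rises of weakly expressed genes was not tested. Pairwise correlations of log2 values across genes were 0.777 to 0.822 within MII, 0.843 to 0.866 within zygotes and 0.688 to 0.754 between the stages. Of 12 oocyte marker genes, 11 were above 1 FPKM in all 6 libraries, and Ddx4 stayed below it. Of 12 cumulus and granulosa markers, 11 stayed below 1 FPKM in all 6, whereas Inha was at 1.66, 0.0442 and 23.5 FPKM in MII A, B and C and at most 0.715 in zygotes. Sperm and spermatid markers summed to 3.55 to 6.04 FPKM in MII and 2.63 to 4.31 in zygotes, and those of oviduct epithelium to 4.44 to 6.11 and 1.37 to 2.98. Blood cell markers stayed below 1 FPKM except for Lyz2 in zygote B.

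Between MII and zygote the NP pool changed in both directions. In limma, with adjusted p under 0.05 and more than a 2-fold change, 976 of 9336 genes tested were higher in zygotes (10.5%) and 1174 lower (12.6%). The genes that fell started high, with a median level of 9.18 FPKM in MII and 2.07 in zygotes, and those that rose went from a median of 0.579 to 2.61 FPKM. Of the lower genes 570 had an MII mean of at least 10 FPKM, whereas 224 of the higher genes reached that level in zygotes. In 236 of the higher genes (24.2%) at least 1 MII library was at the floor, so that the size of their change depends on the offset in the table. Among the lower genes this held for 71 (6.05%) in zygotes. The 3 MII and 3 zygote values did not overlap in 2056 of the 2150 genes called, against 3375 (36.2%) of all genes tested. When the spread was estimated from all 36 libraries of the series, 128 genes were higher and 195 lower, and from the 6 NP libraries alone 454 were higher. With 1 FPKM added to each value 532 were higher, and when a geometric mean of at least 1 FPKM was required 578 were.

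**Figure D1:**
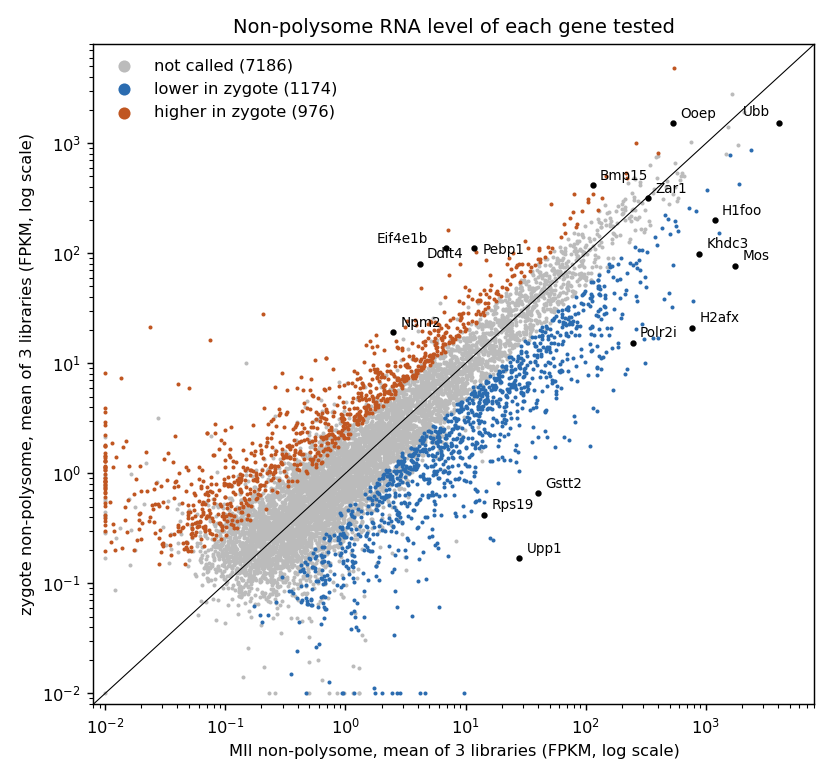
Each point is 1 of the 9336 genes tested, at its mean NP level in MII (x axis, FPKM, log scale) and in zygotes (y axis, FPKM, log scale), with the line of equal levels. The 1174 lower genes (blue) spread along the upper range of MII levels, the 976 higher genes (orange) lie mostly at the low end, and the named genes are in black.

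The falls described here are among the 15 largest of called protein-coding genes that averaged 10 FPKM or more in MII and whose libraries of the stages stood apart. Upp1, the uridine phosphorylase of nucleoside salvage (chr11:9118103-9136171), was at 29.0, 24.9 and 30.2 FPKM in the MII libraries and at 0.110, 0.155 and 0.245 in the zygote libraries. All 3 zygote values lay more than 100 times below the lowest MII value (log2 fold change -7.44 ± 0.37 SE, limma adjusted p = 4.6e-07). Gstt2, a glutathione transferase, went from 36.5, 45.1 and 38.7 FPKM to 0.665, 0.667 and 0.647, with little spread at either stage (-5.92 ± 0.26, limma adjusted p = 3.0e-07). H2afx, the histone variant phosphorylated at DNA breaks (chr9:44334694-44336078), was among the abundant transcripts of the MII pool at 829, 791 and 695 FPKM. In zygotes it stood at 30.6, 12.4 and 20.2 FPKM (-5.29 ± 0.28, limma adjusted p = 5.6e-07). Abhd17a, Sharpin and Endog also fell by more than 5 on the log2 scale, although Abhd17a and Sharpin each had 1 zygote library at the floor and Sharpin and Endog were not called from the 6 NP libraries alone. Snrpd2, an Sm protein of the spliceosome, fell from between 61.6 and 84.6 to between 1.75 and 2.43 FPKM. Med29, a Mediator subunit, fell from between 35.1 and 39.6 to between 0.707 and 1.99 FPKM.

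Mos, the kinase that starts the MAPK cascade of the cytostatic arrest (chr4:3870657-3872106), held 1333, 1672 and 2279 FPKM in the MII libraries and 76.2, 71.9 and 84.1 in the zygote libraries. The groups lay far apart (log2 fold change -4.48 ± 0.20, limma adjusted p = 3.0e-07), and the P libraries gave -4.45 for the same gene. The fall in NP was not called when all 36 libraries set the spread. Of 30 tested genes for MII arrest and meiotic M-phase, 4 fell and 3 rose, shares close to the 12.6% and 10.5% of all genes, so the list as a whole did not follow Mos. Bub1b, a spindle checkpoint protein, fell from 9.05 to 16.3 FPKM in MII to 0.900 to 1.21 in zygotes. Bub1, another checkpoint kinase, fell as well, at levels under 3.2 FPKM. Its call (limma adjusted p = 0.045) was lost when MII A, MII B, zygote B or zygote D was left out. Cdc20, the activator of the anaphase-promoting complex, fell by 1.45 ± 0.24. Cdk1 rose by 1.24, Pttg1 (securin) by 1.87 and Cdc25b, a phosphatase that activates Cdk1, by 2.16 on the log2 scale. Leaving out 1 replicate gave 2 to 4 higher members of this list, the 6 NP libraries 2 and the spread of all 36 libraries 1. Ccnb1, the Cdk1 partner cyclin B1, overlapped between the stages (76.9 to 117 FPKM in MII and 61.2 to 97.0 in zygotes), and so did Fbxo43, the Emi2 inhibitor of the anaphase-promoting complex, and Wee2, the oocyte kinase that inhibits Cdk1.

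Rises of more than 8-fold were called in 359 genes and falls of that size in 278. Among the genes that rose and reached 10 FPKM in zygotes, Eif4e1b, the oocyte form of the cap-binding protein eIF4E (chr13:54783998-54788460), was at 4.65, 8.89 and 6.88 FPKM in MII and at 103.9, 109 and 120 FPKM in zygotes. The lowest zygote value was more than 10 times the highest MII value (4.07 ± 0.24, limma adjusted p = 1.2e-06). Ddit4, an inhibitor of mTORC1 induced by stress (chr10:59949669-59951835), went from 3.54, 4.63 and 4.33 FPKM to 79.8, 68.2 and 93.1 (4.27 ± 0.18, limma adjusted p = 3.0e-07). Pebp1, the Raf kinase inhibitor protein, rose from 8.0 to 16.6 FPKM in MII to 81.1 to 130 in zygotes. Npm2, the oocyte nucleoplasmin that remodels sperm chromatin, rose from 3.09, 3.01 and 1.38 FPKM to 18.4, 19.2 and 19.7. Lars2, the mitochondrial leucyl-tRNA synthetase, was below 1 FPKM in each MII library and at 13.2, 9.55 and 10.7 in zygotes. Ppp1r15b, which brings protein phosphatase 1 to eIF2α, rose by 3.05 ± 0.44. Exosc6, an exosome subunit, was listed at or near the floor in MII (0.01, 0.01 and 0.0513 FPKM) and at 14.9, 24.4 and 25.4 in zygotes, and no fold is given. Mageh1 had 1 MII library at the floor and another at 4.88 FPKM, and its call was lost in the fit of the 6 NP libraries.

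**Figure D2:**
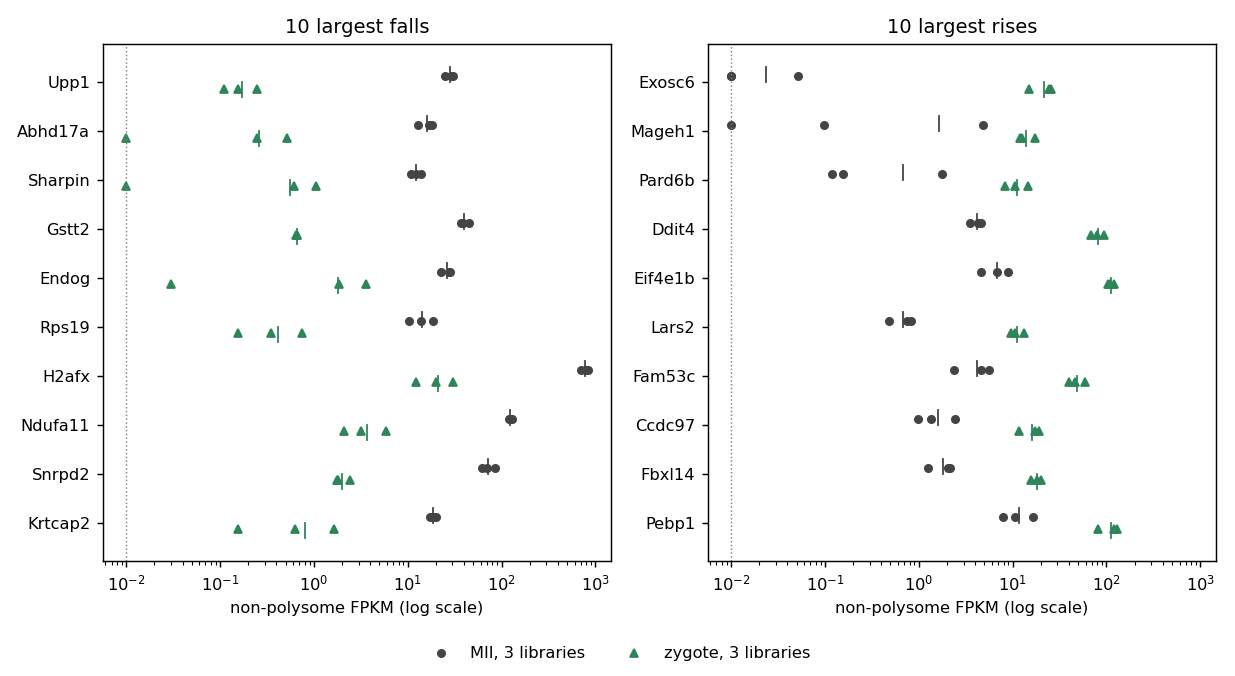
NP level (FPKM, log scale) of the 10 largest falls and 10 largest rises by the rule for named genes, with 3 MII libraries (grey circles), 3 zygote libraries (green triangles) and each group's mean (vertical tick), and the floor of 0.01 as a dotted line. MII and zygote values do not overlap in any of these genes, which the rule required, and Gstt2 shows how tight the zygote values can be.

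Most ribosomal protein transcripts had a lower FPKM in the NP pool of zygotes than in that of MII. Of 78 tested genes for cytosolic ribosomal proteins, 64 were lower in zygotes and 0 higher in limma (68 and 0 at an unadjusted p under 0.05), with a median log2 fold change of -2.34 against 0.11 for all genes. Over all genes 12.6% were lower. Leaving out any single replicate gave 61 to 63 lower members, and with the spread of all 36 libraries 34 were lower. Summed over the list, the NP libraries held 2204, 2189 and 2736 FPKM in MII and 469.9, 415 and 479 in zygotes. The lowest MII sum was therefore more than 4 times the highest zygote sum. Rps19 was at 10.4, 13.9 and 18.6 FPKM in MII and at 0.752, 0.155 and 0.351 in zygotes (-5.33 ± 0.51, limma adjusted p = 2.5e-05). Rplp1, a protein of the ribosomal stalk, fell from 176, 184 and 146 FPKM to 6.93, 3.73 and 6.37 (-4.93 ± 0.29, limma adjusted p = 1.2e-06). Rpl38 fell by 4.89 ± 0.44 and Rpl35 by 2.13 ± 0.29. The 14 members not called included Rpl11, Rpl21, Rps6 and Rps24, whose log2 fold changes of 0.47, -0.12, -0.38 and -0.04 set them apart from the family's median, and Rps12 and Rpl12, whose estimates were -2.76 and -2.47.

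Copies of these genes could share the reads. Of 70 tested ribosomal protein pseudogenes, 39 were lower and 0 higher, against 12.6% and 10.5% of all genes, and they summed to 3754 FPKM in MII and 1060 in zygotes, which exceeds the sum over the genes themselves, so the level of a single ribosomal protein gene is uncertain. In P 61 of the ribosomal protein genes were lower and 1 higher, with a median of -2.62, against 16.2% and 8.24% of all genes. In the difference between the fractions, called in 2.59% of all genes, 1 member was called, Rplp2. Across the stages of the series the list's median NP level was 1.72 to 2.03 FPKM in GV oocytes, 9.10 to 13.2 in MII and 2.17 to 2.498 in zygotes. It was 0.177 to 0.675 in zygotes at M-phase, 6.98 to 7.34 in two-cell embryos and 22.6 to 46.7 in two-cell embryos at M-phase. MII libraries thus stood above GV oocytes and zygotes but below two-cell embryos at M-phase. The embryos at M-phase had been treated with nocodazole.

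A pyrimidine run of at least 10 bases beginning within 25 bases of the start was present in 29 of 59 tested ribosomal protein genes matched to a RefSeq promoter (49.2%), against 11.2% of 27025 genes in the table of promoters. Rpl38 and Rpl18, printed above, have a run of 10 at the start, Rps27 has 9 and Rps19 has 7. Among ribosomal protein genes called lower, 24 of 47 had such a run (51.1%), and among those not called 5 of 12 (41.7%). Among other protein-coding genes the share was 8.58% of those lower, 9.97% of those higher and 10.2% of those not called. Outside the ribosomal family the run was thus no more frequent among genes that fell. The start used is the annotated one, which may differ from that used in oocytes.

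Nuclear genes for oxidative phosphorylation were lower in 50 of 85 cases and higher in 2, with a median of -1.56. These shares compare with 12.6% lower and 10.5% higher over all genes. Left out in turn, the NP libraries gave 46 to 50 lower members, whereas the spread of all 36 libraries gave 16 lower and 0 higher. The sum over the list was 3100, 3235 and 3446 FPKM in MII and 1329, 958 and 1204 in zygotes. Ndufa11, a subunit of complex I, went from 123.1, 128.5 and 121.0 FPKM to 2.09, 3.18 and 5.86 (-5.19 ± 0.32, limma adjusted p = 1.3e-06). Atp5o, part of the stalk of the ATP synthase, fell by 4.89 ± 0.45 at a low level, from 0.858 to 1.29 down to 0.0286 to 0.0509 FPKM. Ndufa4 and Uqcrc2 rose by 1.10 and 1.03, and neither was called without zygote B. The catalytic Atp5a1 and Atp5b, at 0.28 and -0.33, were among the 33 members not called.

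Genes for mitochondrial ribosomal proteins were lower in 33 of 74 cases and higher in 2 (median -0.91), against 12.6% and 10.5% of all genes. With the spread of all 36 libraries 4 were lower and 0 higher, and from the 6 NP libraries 23 were lower. Mrpl14 fell from 33.1, 34.4 and 39.6 FPKM to 1.62, 1.58 and 2.63. Smaller shares of other housekeeping lists were called. Of 35 proteasome genes 11 were lower (median -0.53), with 0 higher also at an unadjusted p under 0.05, and Psmb1, a subunit of the 20S core, fell by 3.65 ± 0.28. Of 22 Sm and LSm splicing genes 6 were lower (median -0.53, or -0.26 without MII C and -0.29 under quantile scaling), and of 21 RNA polymerase subunits 6 were (median -0.89), in both lists with 0 higher in limma and 1 at an unadjusted p under 0.05. With the spread of all 36 libraries the lower members were 2, 1 and 3. Polr2i, a subunit of RNA polymerase II, was at 244.5, 229 and 263 FPKM in MII and at 20.6, 10.5 and 15.1 in zygotes (-4.05 ± 0.26, limma adjusted p = 1.9e-06). Its partners Polr2l and Polr2k fell by 2.71 and 2.54.

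Of 48 tested translation factors, 11 fell and 5 rose, and over all genes 12.6% fell and 10.5% rose. With the spread of all 36 libraries 2 fell and 1 rose, and the rises of Eif4g1 and Eif4a1 were not called without zygote D or with 1 FPKM added. Those that fell included 4 subunits of eIF3 (Eif3l, Eif3g, Eif3k and Eif3f), and those that rose included Eif4e1b, Eif4g1, the scaffold of the cap-binding complex, by 1.74, Eif4h by 1.94, Eif4a1 by 1.04 and Eif5a by 1.02. Eif3g was at 13.4, 15.8 and 13.2 FPKM in MII and 2.42, 2.46 and 2.68 in zygotes.

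Ubb, a polyubiquitin gene and the most abundant transcript of the NP pool over both stages, was at 3798, 4026 and 4439 FPKM in MII and at 1514, 1624 and 1457 in zygotes. The groups did not overlap (-1.42 ± 0.18, limma adjusted p = 1.6e-04), although reads that Ubb shares with near-identical copies could not be assigned with certainty. In P the change of Ubb was -0.26 ± 0.18 and was not called (limma adjusted p = 0.32). The difference between the fractions was called (-1.15 ± 0.25, limma adjusted p = 0.036). Of the 24 genes for proteolysis at the egg-to-embryo transition 4 fell, Ubb among them, and 2 rose, Marf1 and Cdc23, against 12.6% and 10.5% of all genes. Neither rise was called from the 6 NP libraries, without zygote C or D or with 1 FPKM added.

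**Figure D3:**
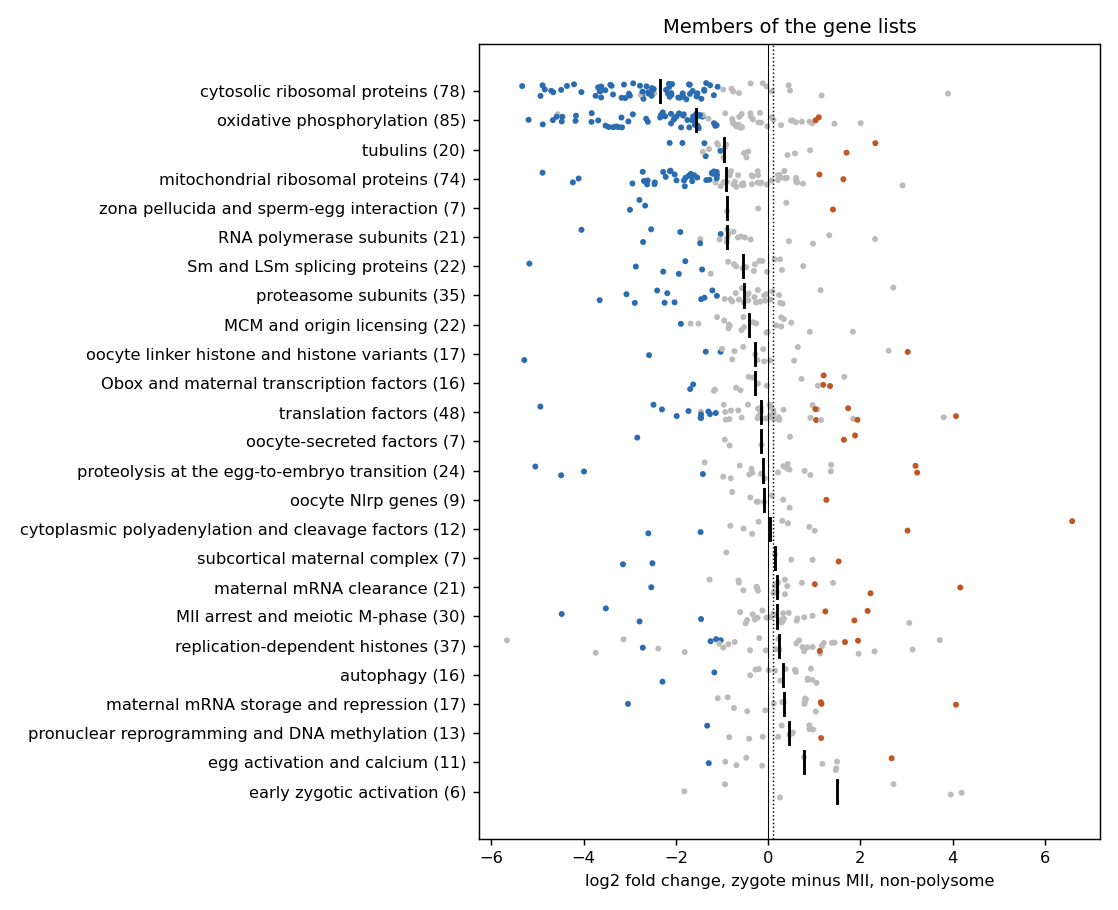
Log2 fold change in NP (zygote minus MII) of each tested member of 25 gene lists, with the number tested in brackets. Blue members were lower and orange members higher, thick lines are list medians, the solid line is 0 and the dotted line the median of all genes, 0.11. Ribosomal proteins and oxidative phosphorylation lie furthest to the left among the larger lists.

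Maternal-effect and oocyte genes did not move as a block. Of 7 genes of the subcortical maternal complex, the protein assembly under the oocyte membrane needed for early cleavage, Khdc3 and Nlrp2 fell and Ooep rose, against 12.6% lower and 10.5% higher over all genes. Khdc3 was at 833, 990 and 811 FPKM in MII and at 90.3, 89.6 and 119 in zygotes (-3.15 ± 0.15, limma adjusted p = 3.0e-07). Ooep (chr9:78376109-78378726) was at 474, 520 and 591 FPKM in MII and at 1404, 1575 and 1582 in zygotes (1.53 ± 0.20, limma adjusted p = 2.2e-04). These partners of 1 complex were thus opposite in direction, each without overlap between the stages, although with the spread of all 36 libraries Ooep was called and Khdc3 and Nlrp2 were not. Nlrp2 stayed below 0.7 FPKM in all 6 libraries, and its call was lost with 1 FPKM added.

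Of 7 tested genes for the zona pellucida, the coat of the egg, and for sperm-egg interaction 3 fell, Zp1, Zp2 and Zp3, and 1 rose, against 12.6% and 10.5% of all genes. With the spread of all 36 libraries these were not called. Zp3, a glycoprotein of the coat, went from 460.1, 676 and 473 FPKM to 70.9, 61.5 and 102 (-2.79 ± 0.21, limma adjusted p = 4.7e-06). The log2 fold change was -2.67 ± 0.26 for Zp1 and -2.996 ± 0.44 for Zp2. The gene that rose was Cd9, the egg tetraspanin needed for sperm fusion (1.41 ± 0.34), a call also lost with 1 FPKM added. Of 7 factors secreted by the oocyte 1 fell and 2 rose, Bmp15 and Bmp6, against 12.6% and 10.5% of all genes. The call of Bmp6 was lost from the 6 NP libraries, under quantile scaling, with 1 FPKM added and without MII A, zygote C or zygote D. Fgf8 fell from 231, 204 and 172 FPKM to 25.5, 25.8 and 33.6, whereas Bmp15 rose from 125, 131 and 87.2 to 391, 451 and 405 FPKM. Neither was called with the spread of all 36 libraries. Gdf9, the partner of Bmp15 in signalling to granulosa cells, was at 513, 659.9 and 558 FPKM in MII and at 333, 258 and 312 in zygotes. Its groups did not overlap and its fold of 1.92 was just under the threshold (-0.94 ± 0.15, limma adjusted p = 9.9e-04). It passed when MII A or zygote B was left out, and without zygote B so did a fall of Oosp3.

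Of 17 genes for storage and repression of maternal mRNA, 3 rose (Eif4e1b, Rbpms2 and Lsm14b) and 1 fell, against 10.5% and 12.6% of all genes. Leaving out 1 replicate gave 2 to 4 higher members, and the 6 NP libraries or 1 FPKM added gave 2. With the spread of all 36 libraries 1 was higher and 0 lower. The gene that fell was Gtsf1, a factor of the piRNA pathway, from between 22.1 and 35.1 to between 3.005 and 3.40 FPKM (-3.04 ± 0.26, limma adjusted p = 1.4e-05). Zar1, which stabilises stored transcripts, overlapped between the stages (299 to 357 FPKM in MII and 236 to 361 in zygotes, limma adjusted p = 0.82). Of 21 genes for clearance of maternal mRNA, 3 rose and 1 fell, against 10.5% and 12.6% of all genes, and 1 rise was called from the 6 NP libraries. Dcp2, the decapping enzyme, rose from 0.964, 0.461 and 0.641 FPKM to 3.06, 3.89 and 2.42 (2.22 ± 0.44, limma adjusted p = 0.0035). Zfp36l2, a protein that binds AU-rich elements, rose by 4.17 ± 1.07, with MII A at 0.0304 FPKM, and its call was lost without zygote D. Btg4, the adaptor that brings CCR4-NOT to maternal transcripts, overlapped (24.95 to 41.9 FPKM in MII and 16.4 to 26.0 in zygotes). Of 12 polyadenylation and cleavage factors, Cpsf1 and Sympk rose and Papola and Cpsf4l fell, against 10.5% and 12.6% of all genes. Cpsf1 had 1 MII library at the floor, and the calls of Cpsf1, Sympk and Papola were lost in the fit of the 6 NP libraries.

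H1foo, the oocyte linker histone (chr6:115944938-115950237), fell from 1116, 1142 and 1304 FPKM to 227, 190.0 and 179 (-2.58 ± 0.20, limma adjusted p = 6.4e-06). Cenpa, the centromeric histone, fell by 1.35. Of 17 linker and variant histone genes 4 fell, 1, Npm2, rose and 12 were not called, and of 37 replication-dependent histone genes 4 were lower and 3 higher, against 12.6% and 10.5% of all genes. Of the 4 falls among linker and variant histones, those of H1foo and H2afx were called under quantile scaling and with the spread of all 36 libraries. Leaving out 1 replicate gave 2 to 6 lower and 1 to 5 higher replication-dependent genes (6 and 1 without zygote B, 2 and 4 without zygote C, 5 and 5 without MII A, 4 and 2 without zygote D), and quantile scaling 1 and 6. Hist1h1a was at 153, 117 and 43.5 FPKM in MII and at 256, 301 and 322 in zygotes (1.67 ± 0.44, limma adjusted p = 0.017), a call lost without zygote D. Most transcripts of this class lack a poly(A) tail, and the libraries were primed on poly(A), so these values cover the polyadenylated share of such transcripts. Of 13 genes for pronuclear reprogramming and DNA methylation, Tet3, the dioxygenase that oxidises 5-methylcytosine, rose by 1.15 ± 0.33, a call lost when MII B or any zygote library was left out, and Trim28 fell by 1.32 ± 0.34, a call lost without MII B. Neither was called from the 6 NP libraries or with 1 FPKM added. Dppa3 (Stella), which protects the maternal genome in the zygote, had overlapping values of 103 to 151 FPKM in MII and 130 to 217 in zygotes.

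Among genes known for the first wave of embryonic transcription, 6 of 23 passed the minimum and 0 were called in limma, with 2 higher and 1 lower at an unadjusted p under 0.05. Without MII A 2 were called higher, without MII B 2 higher and 1 lower, without MII C 1 higher and without zygote B 1 lower, and 1 was called higher with 0.1 or 1 FPKM added. Of these Hspa1a and Hspa1b, a pair of near-identical heat shock genes whose reads cannot be split with certainty, had log2 fold changes of 3.96 ± 1.601 and 4.20 ± 1.66 (limma adjusted p = 0.094 and 0.086). Tcstv3 was at -0.94 ± 0.30 (limma adjusted p = 0.041), short of a 2-fold change. Of 16 Obox and other maternal transcription factor genes, Nfya, Klf17 and Lhx8 rose and Obox2 and Figla fell, against 10.5% and 12.6% of all genes. Of 20 tubulin genes, Tuba3a, Tuba3b, Tuba1c, Tuba4a and Tubb3 fell and Tubb2b and Tubg2 rose, against 12.6% and 10.5% of all genes. Under quantile scaling Tuba3a and Tuba3b were lower and Tubb2a, Tubb2b and Tubg2 higher. The 9 tested oocyte Nlrp genes had a single call, Nlrp9c (1.26 ± 0.27), lost with 1 FPKM added and with the spread of all 36 libraries. Of 22 genes for origin licensing Orc2 was called, at levels of at most 1.08 FPKM (without MII C Orc2 and Orc3 were lower and Cdt1 and Mcm3 higher, and without zygote B Cdt1 alone was called, as higher), and of 16 autophagy genes Atg16l1 and Lamp1 were, all lower. Of 11 genes for the calcium signal of activation, Cacna1h rose and Calm2 fell, against 10.5% and 12.6% of all genes. The calls of Klf17, Lhx8, Tubb2b, Orc2, Cacna1h and Calm2 were lost in the fit of the 6 NP libraries.

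Among the most abundant transcripts of the NP pool some fell, Ooep rose and others were not called. The 10 most abundant genes held 13.9 to 15.3% of the summed FPKM in MII and 15.5 to 16.6% in zygotes. Elobl, the oocyte paralog of elongin B, was at 1763, 1474 and 1705 FPKM in MII and 2472, 2677 and 3362 in zygotes, without overlap but below a 2-fold change (0.78 ± 0.16, limma adjusted p = 0.0038). Sap18b and Bcl2l10, an anti-apoptotic protein of oocytes, overlapped between the stages. AU022751 fell by 1.42, Gja4, the connexin of the gap junctions to granulosa cells, by 1.05 and Omt2b by 2.13. The call of Gja4 was lost without MII B or zygote C and under quantile scaling.

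The question of whether the NP change was the same as that in P was put by an interaction contrast over 12 libraries. Across genes the changes in the fractions had a Pearson correlation of 0.63 (Spearman 0.63), given as a description of 9336 genes that are not independent replicates. Of the 1174 genes lower in NP, 866 were also lower in P (73.8% of them, and 57.2% of the genes lower in P) and 0 were higher there. Of the 976 genes higher in NP, 372 were higher in P too (38.1% of them, and 48.4% of those in P) and 600 were not called. Between the fractions themselves 201 genes differed in favour of NP (2.15%) and 41 in favour of P (0.439%). With the gradient as a block, since both fractions of a stage and letter were taken to come from the same gradient, 99 and 16 genes differed. Without zygote B the counts were 50 and 8, without zygote C 99 and 22 and without zygote D 50 and 5, and without MII A 27 favoured P. Median scaling gave 130 in favour of NP, quantile scaling 173 and 74, no filter 161 and 87, and the spread of all 36 libraries left 4 and 0.

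In the 201 genes the P level mostly fell and the NP level more often passed no test. Their median log2 fold change was -0.06 in NP and -2.01 in P, and 141 were called lower in P. In NP 34 were lower, 59 higher and 108 not called. The median P to NP log2 ratio went from 0.49 in MII to -1.41 in zygotes. Cdc20 was the clearest case, with NP values of 100.2, 117 and 121 FPKM in MII and 34.0, 47.2 and 43.0 in zygotes. Its P values went from 130.4, 136 and 157 to 2.02, 3.37 and 1.65 FPKM. Both fractions fell without overlap (log2 fold changes -1.45 in NP and -5.97 in P). The difference of 4.52 ± 0.34 (limma adjusted p = 3.1e-04) was called in every alternative run for it. Fpgs, the enzyme that adds glutamate to folates, kept 25.9, 23.6 and 17.3 FPKM in NP, from 45.0, 33.7 and 31.1, while P went from 40.4 to 61.8 down to 2.0 to 2.8 FPKM. Its difference was 3.64 ± 0.33 (limma adjusted p = 9.3e-04). Stoml2, a scaffold of the inner mitochondrial membrane, differed by 3.60 ± 0.43, and Psmb6, a catalytic subunit of the proteasome, by 2.13 ± 0.34. H2afx (2.30), AU022751 (1.80), Tcl1 (1.65) and H1foo (1.51) also fell more in P than in NP on the log2 scale, and so did Magoh, a protein of the exon junction complex (3.40). Kif20a, a mitotic kinesin, and D6Ertd527e had wide NP values in MII (2.98 to 17.4 and 68.5 to 185 FPKM), and their calls were lost without MII B or any zygote library, that of Kif20a also without MII C and with the gradient as a block.

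Of the 41 genes of the opposite kind 31 were called higher in P, 3 lower and 7 in neither direction. In NP 10 were lower, 8 higher and 23 not called. Their median log2 fold change was 0.25 in NP and 1.82 in P, and their median P to NP log2 ratio went from -1.28 to 0.31. Those lower in NP included Ubb (-1.42 in NP and -0.26 in P) and Ndufv3 (-4.67 and -2.41). Bmp15 rose 1.89 in NP and 3.24 in P, from 51.1, 59.6 and 42.2 FPKM to 489, 467 and 475 in P. Swi5, a recombination factor, rose 2.15 and 4.01, and Gstm5, a glutathione transferase, 1.58 and 3.91. Ldhb, the lactate dehydrogenase subunit of heart, was at 115, 135 and 62.6 FPKM in MII NP and at 302, 316 and 312 in zygote NP, and rose by 3.60 in P. Tomm6, part of the outer membrane translocase, kept its NP level (11.6 to 17.9 and 12.9 to 15.95 FPKM) and rose by 1.53 in P. With the gradient as a block, the differences of Gstm5, Ldhb and Tomm6 were not called, and leaving out any zygote library ended those of Gstm5, Ldhb, Swi5, Krt12 and Tomm6. A rise in NP with a fall in P was called in 4 genes, named here after their values were seen: Ankrd13d, B9d2, Dpp3 and Ppp4c. Ppp4c, the catalytic subunit of protein phosphatase 4, was at 10.5, 8.38 and 12.3 FPKM in MII NP and at 25.9, 19.4 and 23.9 in zygote NP (1.16 ± 0.20), with -1.24 ± 0.20 in P. Ankrd13d was at the floor in all 3 MII NP libraries.

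**Figure D4:**
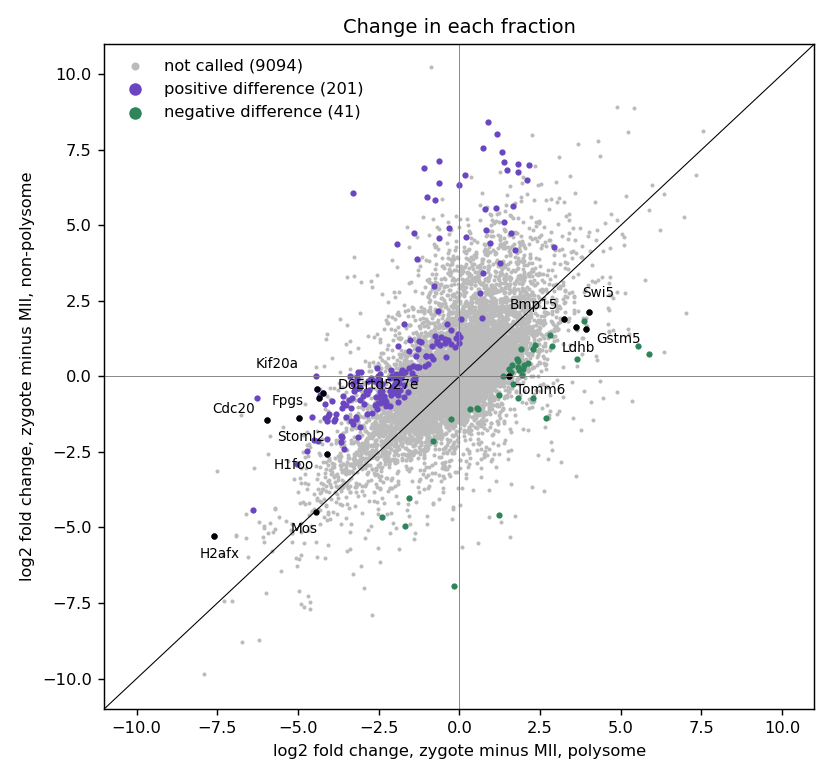
Log2 fold change (zygote minus MII) of each gene tested in P (x axis) against NP (y axis), with the line of equal change. The 201 genes whose change was more positive in NP (violet) lie above the line and the 41 of the opposite kind (green) below it. Named genes are in black, with Mos on the line and Cdc20 far above it.

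The CPE-like sites printed above were counted in all protein-coding genes with an annotated 3′UTR of at least 100 bases. The share with TTTTAT or TTTTAAT there was 18.9% of 6915 tested genes and 17.8% of 19060 genes of the annotation. By the NP change it was 17.3% of the genes that fell, 16.2% of those that rose and 19.5% of those not called, so the NP change alone did not separate genes with a site. By the difference between fractions it was 33.7% of the genes in favour of NP (55 of 163), 3.57% of those in favour of P (1 of 28, Tomm6) and 18.6% of the rest. Without MII B the share in favour of NP was 22.0% and without MII C 25.7%. The share in favour of P rests on few genes, and was 13.3% without MII B (2 of 15), 10.9% under quantile scaling (6 of 55) and 0 without zygote B or zygote D. Genes lower in P held a site in 22.0% of cases, and those higher in P in 14.99%. The site of Cdc20 was not in these counts, as its annotated 3′UTR has 62 bases. Most genes with a site were not called in the difference between fractions. Of 1306 genes with a site 55 differed in favour of NP (4.21%), and of 5609 without a site 108 did (1.93%). The median difference was 0.35 with a site and 0.24 without. Btg4, Wee2 and Gdf9 hold it too and were not called in either comparison, and the annotated 3′ end may not be the end used in oocytes.

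Transcript length went with the direction of the NP change. For 7492 of 7581 protein-coding genes matched to GENCODE, the median length of 1 transcript a gene, that with the longest coding sequence, was 1466 bases for genes that fell, 2610 for those not called and 2984 for those that rose, and the median 3′UTR was 257, 797 and 1073 bases. With these genes in 5 length classes of equal size, in the shortest class (296 to 1412 bases) 30.3% fell and 5.47% rose, and in the longest class (from 4163 bases) 4.14% fell and 13.6% rose. Without 6 lists of genes for small proteins (cytosolic and mitochondrial ribosomal proteins, oxidative phosphorylation, proteasome, Sm and LSm, RNA polymerase) 24.4% of the shortest class still fell. Of the ribosomal protein genes 85.9% lie in the shortest class, and of the oxidative phosphorylation genes 72.9%, and the part of length in the falls of these lists was not tested. In P the shortest class behaved alike, with 33.0% lower and 6.53% higher. GC content went with both directions, with 7.67% lower and 5.80% higher in the class of lowest GC and 16.5% and 15.6% in that of highest GC.

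**Figure D5:**
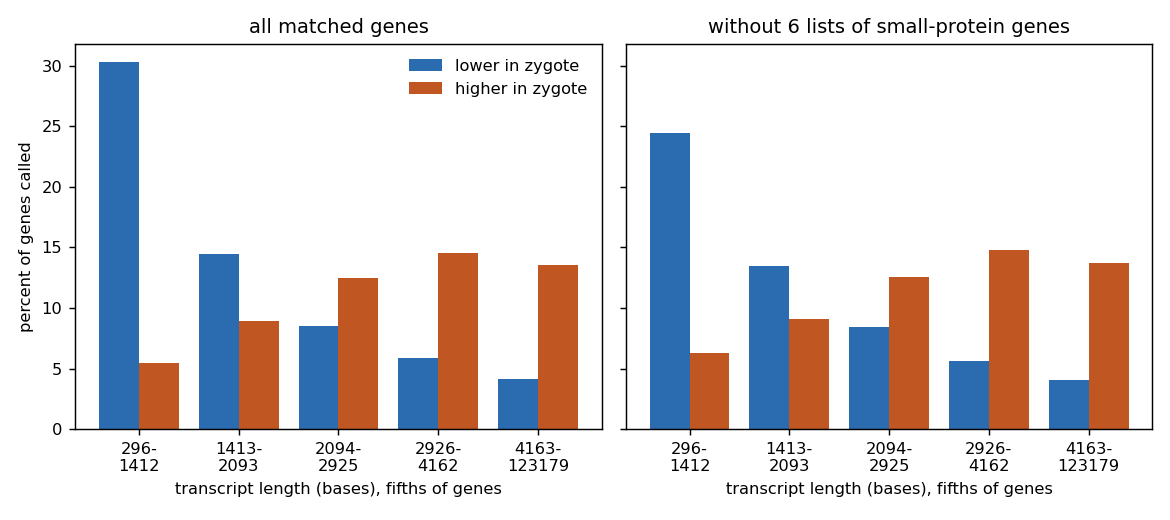
Percent of protein-coding genes lower (blue) or higher (orange) in zygote NP, in 5 classes of transcript length (bases), for all matched genes and without the 6 lists of small-protein genes. Lower genes decline from 30.3% in the shortest to 4.14% in the longest class, and without the lists from 24.4%.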

How the data were processed

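RNA was measured by poly(A)-primed sequencing (SMART-seq v4) of NP and P pools of sucrose gradients (SSP-profiling). The deposited table gives 1 FPKM value per gene and library, made by the authors with Trim Galore 0.4.1, STAR 2.5.3a and Partek on GRCm38 per the submitters' processing notes, for 23125 genes in 36 libraries. The methods name RefSeq genes, whereas the annotation columns are of the Ensembl kind. Every value carries an offset of 0.01, which is the floor, and read counts are not analysed here, so counting intervals cannot be given. Priming on poly(A) means that tail length and amount of RNA cannot be told apart. The zygote A libraries of the series are not analysed here.

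Log2 of the deposited FPKM, with no further pseudocount, was fitted in limma 3.58.1 (R 4.3.3) over 12 libraries in 4 groups, MII and zygote in NP and in P, with a trend in the variance. Genes needed a geometric mean of at least 0.1 FPKM, which 9336 met. A gene was called at a Benjamini-Hochberg adjusted p under 0.05 over all genes tested and an absolute log2 fold change over 1. The difference between fractions is the NP change minus the P change. Values after ± are standard errors, and fold changes are on the scale of log2 of the value with its offset, which understates changes of weakly expressed genes. Other tests were exact permutation tests (scipy 1.17.1).

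Genes named were the 15 largest rises and falls among called protein-coding genes with at least 10 FPKM in the higher group and no overlap, the 3 largest changes among called members of each list, genes chosen for their role, the 10 most abundant and the 5 largest differences between fractions in each direction. Members of a list could also be named where it is described. Some genes that met the rule are not reported here. The members and gene lists were chosen with earlier results of these data known. Letters name replicates, and where nothing says that they came from separate females the p-values measure the spread between libraries only. The same letter in both stages did not mark a pair, with residual correlations of -0.052 and -0.019 in NP. Both fractions of a letter and stage were taken as 1 gradient, from the design, with residual correlations of -0.018 to 0.130. Transcript lengths and 3′ ends came from GENCODE (GRCm38), promoters from RefSeq (GRCm38.p6).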

Additional observations from a re-analysis of the deposited data

Results flagged for a closer look

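The change from MII to zygote differed between NP and P by the interaction test in limma for 10 genes of the rule on differences between fractions. The differences, NP change minus P change on the log2 scale, were 4.52 for Cdc20, 3.98 for Kif20a, 3.69 for D6Ertd527e, 3.64 for Fpgs and 3.60 for Stoml2, and -2.33 for Gstm5, -1.95 for Ldhb, -1.87 for Swi5, -1.86 for Krt12 and -1.53 for Tomm6. Those of Cdc20, Fpgs and Stoml2 were called without any 1 of the 6 replicates of the stages, and that of Cdc20 also with the spread of all 36 libraries. The others were not called when zygote B, C or D was left out. With the gradient as a block those of Kif20a, Gstm5, Ldhb and Tomm6 were not called, and the other 6 were.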

How the results depend on the processing

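No gene called in NP or in the difference between fractions changed sign in any setting run. Of the 2150 NP calls 14.7% were kept with the spread of all 36 libraries and 59.3 to 98.4% in the other settings. NP counts of 976 higher and 1174 lower became 532 higher with 1 FPKM added, 578 higher at a geometric mean of at least 1 FPKM, 454 higher from the 6 NP libraries and 128 higher and 195 lower with all 36 libraries. Leaving out 1 replicate gave 699 to 1154 higher and 1083 to 1132 lower. Counts of 201 and 41 differences between fractions became 130 in favour of NP under median scaling, 87 in favour of P with no filter, 74 in favour of P (173 in favour of NP) under quantile scaling and 4 and 0 with all 36 libraries. With the gradient as a replicate block they were 99 and 16, and leaving out 1 replicate gave 50 to 227 and 5 to 52. The median difference between fractions over all genes was 0.23, against -0.03 under quantile and 0.09 under median scaling. With the letter as a block, which is no pairing in these data, 701 genes were higher and 1034 lower in NP. With 1 FPKM added, list medians were -1.70 for ribosomal proteins, -0.64 for mitochondrial ribosomal proteins and -1.17 for oxidative phosphorylation. Mitochondrial ribosomal proteins were at -0.63 under quantile scaling. The calcium list turned from 0.78 to -0.93 at a geometric mean of at least 1 FPKM, where fewer members were tested. The difference in detected genes was 882 above 0.1 FPKM and 12 above 1 FPKM. The share of genes in favour of NP with a CPE-like site ranged from 22.0 to 35.1% with 1 replicate left out and was 0 with all 36 libraries, where 1 gene remained. For the named genes 122 results were checked, some of which were not called in the main fit and so had no call to lose. With the spread of all 36 libraries 69 lost their call. Of the 112 results in NP 20 lost their call with the 6 NP libraries. The causes were not tested. The read depth is unknown, so what it limits cannot be stated.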
